A study of Rattus norvegicus with 6 samples.

Results

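The genes described here are Rgr, which encodes an opsin of the retina, its neighbors on chromosome 16, Lrit1, Ccser2 and Cdhr1, and the retinol dehydrogenases Rdh5, Rdh10 and Rdh11. They are 7 of the 18746 genes in the read count table, each matched by its symbol, and all 7 are also in the FPKM table and passed the filter on low counts. The set was chosen by the measured change of its leading genes between siNQO1 and siCtrl, and was filled up by position (neighbors of Rgr) and by function (retinol handling). The siNQO1 over siCtrl values of the 7 genes are therefore given as a description. Where one of them is said to be called, this says only on which side of the threshold it lay in a fit over all genes, and it supports nothing about the set.

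PC12 is a cell line established from a rat adrenal pheochromocytoma. It was transfected with an siRNA against NQO1 (siNQO1, 3 libraries) or with a nontargeting siRNA (siCtrl, 3 libraries), both with Lipofectamine 2000, and polyadenylated RNA was sequenced. The deposited labels give the same grouping but name an siRNA in one place and an shRNA and a control plasmid in others, and give a harvest at 48 h for RT-qPCR only. The libraries are described as biological replicates, but no source ties each library to a separate culture, so the errors measure the spread between these samples, and an exact two-sided permutation test of 3 libraries against 3 cannot go below p = 0.10.

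Vitamin A is handled in cells by pairs of enzymes that interconvert retinol and retinal. Retinal is the chromophore of opsins, and its further oxidation gives retinoic acid, the ligand of nuclear receptors. In the eye, RGR is an opsin of the retinal pigment epithelium and of Muller glia that binds all-trans-retinal, and RDH5 oxidizes 11-cis-retinol in the pigment epithelium. RDH10 oxidizes all-trans-retinol as the first step towards retinoic acid in the mouse embryo, and RDH11 is a retinal reductase of many tissues. LRIT1 is a membrane protein of photoreceptor synapses in the mouse, and CDHR1 is a cadherin of photoreceptor outer segments.

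Rgr and Lrit1 stand next to each other in the RefSeq gene order and are read from opposite strands, head to head and with no overlap of their gene spans. Their start regions are shown because these were the neighbors that were both higher in siNQO1. Each window runs from 250 bases before to 50 bases after the RefSeq start and is given 5′ to 3′ on the strand of the gene (RefSeq, GRCr8, Rgr at chr16:12836437-12836736 on the minus strand, Lrit1 at chr16:12842089-12842388 on the plus strand). Capitals mark the core of sites bound by the photoreceptor factor Crx (TAATCC) and the core of sites bound by Sox factors (ACAAAG).
Rgr: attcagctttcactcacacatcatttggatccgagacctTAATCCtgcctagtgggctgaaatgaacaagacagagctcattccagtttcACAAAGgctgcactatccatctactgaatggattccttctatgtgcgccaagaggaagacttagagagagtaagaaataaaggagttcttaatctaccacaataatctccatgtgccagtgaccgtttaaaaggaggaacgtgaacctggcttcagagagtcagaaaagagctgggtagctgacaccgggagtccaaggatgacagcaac
Lrit1: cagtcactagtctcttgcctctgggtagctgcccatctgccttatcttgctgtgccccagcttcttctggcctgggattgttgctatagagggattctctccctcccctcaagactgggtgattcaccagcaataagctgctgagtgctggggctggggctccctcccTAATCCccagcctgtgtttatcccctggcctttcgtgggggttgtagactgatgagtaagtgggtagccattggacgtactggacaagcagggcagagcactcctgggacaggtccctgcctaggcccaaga

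Both windows held TAATCC, on the strand of the gene, starting at position -211 from the RefSeq start in Rgr and -82 in Lrit1, where the start itself is position 0. The core was in 2 of the 6 windows that could be matched for the 7 genes (a window for Rdh10 was not used here) and in 7.17% of all 33469 rat windows of this length. ACAAAG was in the window of Rgr alone among the 6, at position -160, and in 18.8% of all windows. The core of the antioxidant response element, TGACNNNGC, was in the windows of Ccser2 and Cdhr1 and in 12.1% of all windows, and the retinoid receptor half-site AGGTCA was in that of Ccser2 and in 16.2% of all. TATAAA (14.2% of all windows) and CACGTG (6.42%) were in none of the 6. Both strands were searched, and the matches to TGACNNNGC and AGGTCA in Ccser2 overlap. The window of Rgr held 45.3% G and C and 5 CpG sites, that of Lrit1 57.0% and 2, and that of Ccser2 67.0% and 26, against medians of 51.7% and 7 over all windows. These matches describe the letters and not binding, which was not measured.

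Depth ran from 32789228 to 39467230 reads counted in genes per siNQO1 library and from 28873824 to 35235040 per siCtrl library. Nqo1, the targeted gene, was at 80.8, 75.2 and 77.7 FPKM in siNQO1, against 368.6, 320.5 and 345.3 FPKM in siCtrl. On PC1 of log2 CPM, which held 44.4% of the variance, siCtrl replicate 2 had a score of -5.08, next to the siNQO1 libraries (-19.6 to -12.1) and away from the other siCtrl libraries (20.7 and 32.2), and values without it are given below where they differ. The chromaffin markers expected of PC12 were at or near 0. Th, Dbh, Ddc, Chga and Chgb lay between 0.00 and 0.07 FPKM in siNQO1 and between 0.00 and 0.12 FPKM in siCtrl, and the 8 markers found summed to 0.88 to 1.04 FPKM in siNQO1 and 0.92 to 1.17 FPKM in siCtrl. The 5 Schwann cell markers summed to 379.7 to 386.4 FPKM in siNQO1 and 424.8 to 488.0 FPKM in siCtrl, mostly from Sox10 and S100b, with Mbp at 0.01 to 0.04 FPKM in all libraries. The values below are those of cells labelled PC12 in which these markers were found as given. Of that list, S100b fell by 0.45 on the log2 scale (standard error, SE, 0.061, edgeR adjusted p = 0.00329), and the part of this list in the values of Rgr was not tested. In bulk RNA, more cells with a transcript and more transcript per cell cannot be told apart.

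Rgr was the gene with the highest fold change among the 654 called higher. Rgr (ENSRNOG00000012396) had 4439, 4720 and 5957 reads in siNQO1 replicates 1, 2 and 3, against 472, 485 and 525 reads in siCtrl replicates 1, 2 and 3. As FPKM, which is per kilobase of transcript and so can be compared between genes, these were 69.5, 74.9 and 78.9 in siNQO1 and 8.60, 7.21 and 7.81 in siCtrl. The groups were far apart, the lowest siNQO1 library being 8.28 times the highest siCtrl library in scaled CPM. The means were 74.4 ± 4.72 FPKM in siNQO1 and 7.87 ± 0.697 FPKM in siCtrl (SD, n = 3 each), and the log2 fold change was 3.26 (SE 0.079), or 9.55-fold. Rgr took 0.0134% to 0.0151% of all reads in siNQO1 and 0.00139% to 0.00163% in siCtrl. By FPKM it ranked between 1139 and 1253 among the listed genes of a siNQO1 library, and between 6017 and 6621 in a siCtrl library. It was thus expressed in siCtrl as well, and in siNQO1 at a level near that of the targeted gene in the same libraries.

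Within the groups Rgr varied more than the median gene of its level. Its coefficient of variation in scaled CPM was 5.43% in siNQO1 and 8.81% in siCtrl, while the median of 1818 genes of like abundance (within 0.5 on the log2 CPM scale) was 3.11% and 6.38%. The library that stands apart, siCtrl replicate 2, had the lowest Rgr FPKM of all 6. The plot of the 7 genes by library shows Rgr, Lrit1 and Rdh5 as the genes whose groups do not touch.

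**Figure D1:**
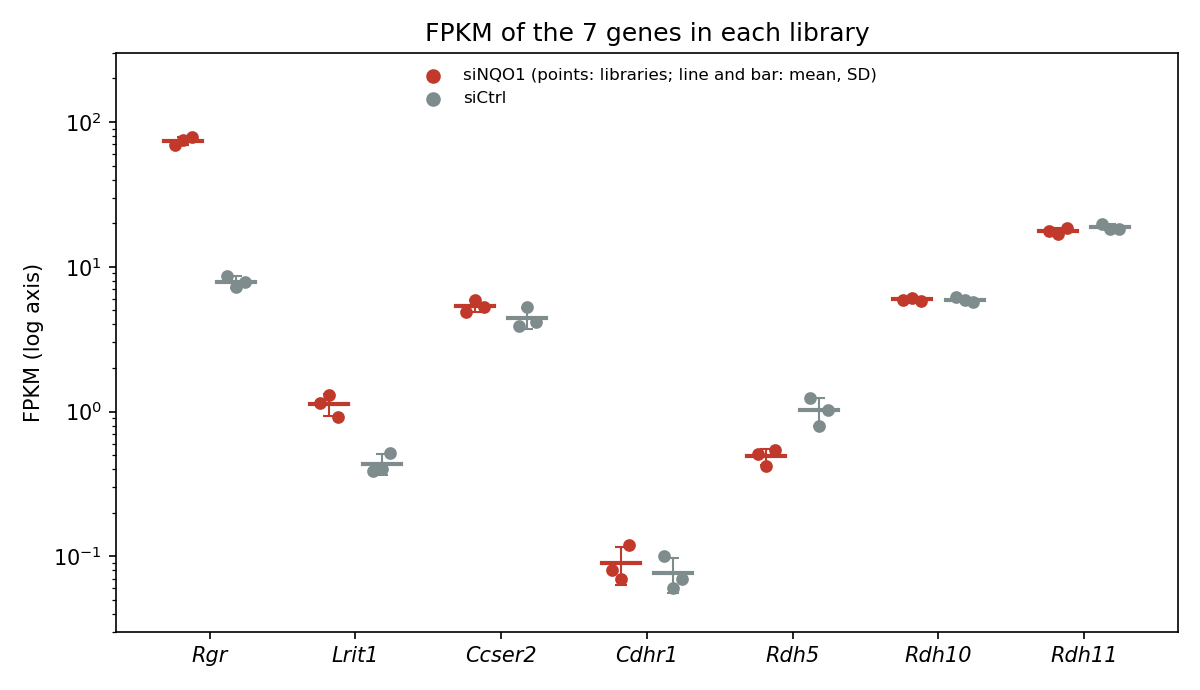
FPKM of the 7 genes in each library, on a log axis, with siNQO1 in red to the left of siCtrl in gray. Points are libraries, lines are means and bars are SDs (n = 3 each). Rgr lies between 69.5 and 78.9 FPKM in siNQO1 and between 7.21 and 8.60 FPKM in siCtrl, while the groups overlap for Rdh10 and Rdh11.

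Lrit1, the next gene to Rgr on the side of its start, was also higher. Lrit1 (ENSRNOG00000012790) had 178, 202 and 170 reads in siNQO1, against 53, 66 and 86 reads in siCtrl, which gave 1.14, 1.31 and 0.92 FPKM in siNQO1 and 0.39, 0.40 and 0.52 FPKM in siCtrl. The groups did not overlap, although the highest siCtrl library came within 1.74-fold of the lowest siNQO1 library in scaled CPM. The log2 fold change was 1.36 (SE 0.19), or 2.57-fold. Lrit1 was much less abundant than Rgr in all libraries. Its FPKM was 1.64%, 1.75% and 1.17% of that of Rgr in siNQO1, against 4.53%, 5.55% and 6.66% in siCtrl. The share was lower in every siNQO1 library, which restates that the change of Rgr was larger than that of Lrit1. The coefficient of variation of Lrit1 was 17.9% in siNQO1 and 17.6% in siCtrl, above the medians of 10.7% and 14.3% for 838 genes of like abundance. On log2(FPKM + 1) its log2 fold change was 0.56, since the pseudocount is of the size of its level.

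Ccser2 (ENSRNOG00000022781), a coiled-coil protein whose gene lies beyond the end of Rgr, had overlapping groups. It was at 4.90, 5.92 and 5.31 FPKM in siNQO1, against 3.89, 5.27 and 4.14 FPKM in siCtrl (log2 fold change 0.29, SE 0.13). Its span overlaps those of 2 noncoding genes in GRCr8. The groups overlapped through siCtrl replicate 2, which at 5.27 FPKM lay among the siNQO1 libraries. Without siCtrl replicate 2 the log2 fold change was 0.43, and the gene was then called higher, which it was not with all 6 libraries. Cdhr1 (ENSRNOG00000013330), the photoreceptor cadherin beyond Lrit1 and Lrit2, was close to undetected, with 14, 11 and 23 reads in siNQO1 and 14, 11 and 13 reads in siCtrl, or 0.07 to 0.12 FPKM and 0.06 to 0.10 FPKM. Its log2 fold change of 0.23 had a SE of 0.36, and it became -0.025 without siNQO1 replicate 3. A difference in Cdhr1 was not detectable at this depth.

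The other genes around Rgr showed no change of the size seen in Rgr. Of the 10 genes on either side in the RefSeq table, 2 besides the members were in the count table. Lrit2, between Lrit1 and Cdhr1 and a relative of Lrit1, had 5 to 10 reads in siNQO1 and 2 to 8 reads in siCtrl and was not tested. Ghitm, which encodes a protein of the inner mitochondrial membrane, was at 239.0, 246.6 and 252.4 FPKM in siNQO1, against 209.4, 202.7 and 204.7 FPKM in siCtrl. It rose by 0.27 on the log2 scale (SE 0.045, edgeR adjusted p = 0.00714), a small change with groups that did not overlap. It kept its call without any 1 library (highest edgeR adjusted p = 0.0381).

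Since few genes of that window were in the count table, the 10 genes of the count table on either side of Rgr were taken as well, a window chosen after the values had been seen. It held 17 genes besides the members, of which 8 were tested. Ghitm was called higher and the other 7 did not pass, where 12.6% of all genes tested were called in either direction. The median log2 fold change was -0.041 over the 8 genes, beside 0.0099 over all genes tested. The cohesin release factor Wapal had a log2 fold change of 0.30 (SE 0.26) and was at 4.57, 4.84 and 4.32 FPKM in siNQO1, against 2.54, 5.74 and 2.94 FPKM in siCtrl, again with siCtrl replicate 2 apart. Fam213a, a redox protein, had a log2 fold change of -0.28 (SE 0.086, edgeR adjusted p = 0.0673). Glud1, Fam25a, Mmrn2, Bmpr1a and Tspan14 had log2 fold changes between -0.20 and -0.02. Opn4, which encodes the opsin melanopsin and lies in the same window, was at 0.01 to 0.07 FPKM in siNQO1 and 0.02 to 0.09 FPKM in siCtrl. The plot in gene order shows Rgr and Lrit1 as a pair above the rest.

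**Figure D2:**
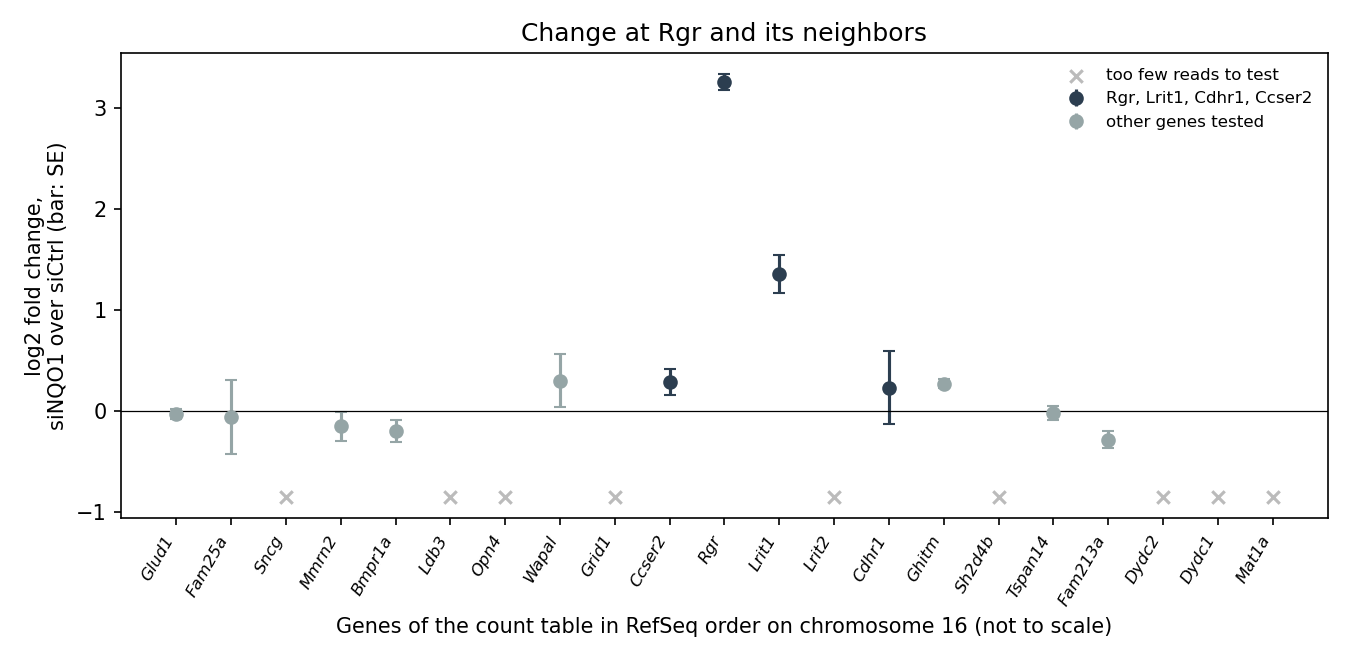
Log2 fold change of siNQO1 over siCtrl for Rgr and the 10 genes of the count table on either side, in RefSeq order on chromosome 16 and not to scale. Dark points are Rgr, Lrit1, Ccser2 and Cdhr1, light points are other genes tested, bars are SEs, and crosses are genes with too few reads to test. Rgr is at 3.26 and Lrit1 at 1.36, and the other tested genes lie between -0.28 and 0.30.

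Among the retinol dehydrogenases, Rdh5 was lower, and the groups of Rdh10 and Rdh11 overlapped. Rdh5 (ENSRNOG00000053850, chromosome 7) had 45, 37 and 57 reads in siNQO1, against 95, 74 and 96 reads in siCtrl, which gave 0.51, 0.42 and 0.54 FPKM in siNQO1 and 1.24, 0.79 and 1.02 FPKM in siCtrl. The groups did not overlap, with siCtrl replicate 2 the nearest of its group to siNQO1. The log2 fold change was -1.03 (SE 0.22). The call rested on few reads, and it was lost without siNQO1 replicate 1, 2 or 3 or siCtrl replicate 3, where the log2 fold change was -1.08, -0.95, -1.12 and -1.02. It held without siCtrl replicate 1 or 2. On log2(FPKM + 1) the log2 fold change was -0.43. In GRCr8 the spans of Rdh5 and of Cd63, which encodes a tetraspanin, overlap, and whether counting used strand is not given in the sources used here. Cd63 was at 1175 to 1263 FPKM in siNQO1 and 1142 to 1241 FPKM in siCtrl (log2 fold change 0.03, SE 0.057, edgeR adjusted p = 0.771), and its part in the reads of Rdh5 was not tested.

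Rdh10 (ENSRNOG00000006681, chromosome 5) was at 5.92, 6.12 and 5.81 FPKM in siNQO1, against 6.15, 5.87 and 5.70 FPKM in siCtrl. The groups overlapped, with a log2 fold change of 0.02 (SE 0.077). Its coefficient of variation was 3.14% in siNQO1 and 3.11% in siCtrl, below the medians of 5.23% and 8.39% for 1767 genes of like abundance. Rdh11 (ENSRNOG00000054770, chromosome 6) was at 17.6, 16.9 and 18.4 FPKM in siNQO1, against 19.9, 18.4 and 18.3 FPKM in siCtrl (log2 fold change -0.08, SE 0.063), also with overlapping groups. The 3 dehydrogenases summed to 24.0, 23.4 and 24.8 FPKM in siNQO1 and 27.3, 25.0 and 25.1 FPKM in siCtrl. Rdh5 made up 1.79% to 2.18% of this sum in siNQO1 and 3.16% to 4.55% in siCtrl.

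At an adjusted p under 0.05 from edgeR, 2 of the 7 genes were called higher and 1 lower, where 5.27% and 7.38% of the 12420 genes tested were, and 12.6% in either direction. The same 3 genes also passed a fold of 2, as 0.435% of all genes tested did, and their groups did not overlap, as in 34.2% of all genes tested. This comparison chose the genes, so nothing is read from these counts. The median log2 fold change of the 7 genes was 0.23, beside 0.0099 over all genes tested.

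The order of the levels differed between the groups. By mean FPKM it was Rgr, Rdh11, Rdh10, Ccser2, Lrit1, Rdh5 and Cdhr1 in siNQO1, from high to low, and Rdh11, Rgr, Rdh10, Ccser2, Rdh5, Lrit1 and Cdhr1 in siCtrl. Neighbors in this order did not overlap over the libraries, with the exception of Rdh10 and Ccser2 in siNQO1, where the lowest Rdh10 library had 5.81 FPKM and the highest Ccser2 library 5.92 FPKM. Rgr was 3.95 to 4.44 times as abundant as Rdh11 in siNQO1 libraries and 0.393 to 0.433 times as abundant in siCtrl libraries.

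**Figure D3:**
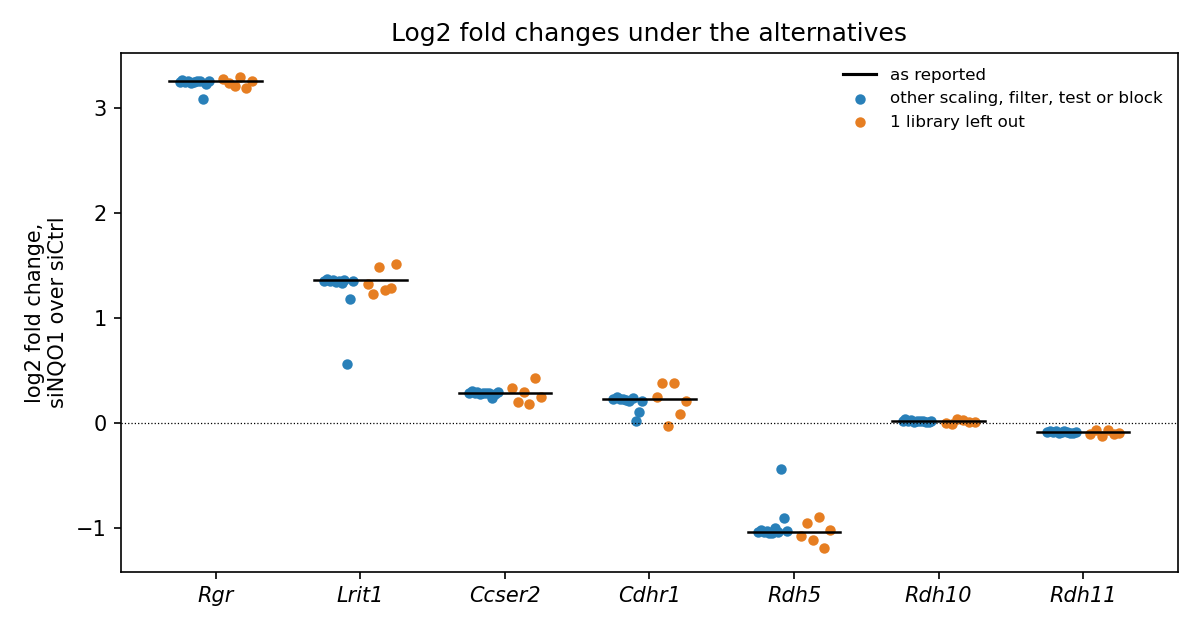
Log2 fold change of siNQO1 over siCtrl for the 7 genes as reported (black line), under other scalings, filters, tests and a replicate block (blue points) and with 1 library left out (orange points). Rgr stays between 3.09 and 3.30. Lrit1 and Rdh5 each have a blue point nearer to 0, from log2(FPKM + 1), at 0.56 and -0.43.

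The patterns most like that of Rgr over the 6 libraries, by Pearson correlation of log2 CPM among 11096 genes, were those of Tradd (r = 0.999), an adaptor of death receptors, Col5a2 (r = 0.998), a collagen chain, Fez2 (r = 0.998), Jam3 (r = 0.998), a junctional adhesion molecule, and Tmem127 (r = 0.997). Their log2 fold changes of 0.76, 0.87, 0.33, 0.54 and 0.56 were all smaller than that of Rgr. For Rdh5 the most similar of those reported here were Zfp341 (r = 0.998), LOC100910252 (r = 0.997), the nuclear export receptor Xpo5 (r = 0.996) and Pet100 (r = 0.996), with log2 fold changes between -0.58 and -0.15. Zfp341 and Pet100 did not pass the test (edgeR adjusted p = 0.244 and 0.136). In both, as in Rdh5, siCtrl replicate 2 was the siCtrl library nearest to siNQO1 in scaled CPM. With 6 libraries in 2 groups, such correlations depend on the separation of the groups and on the order of the libraries within them.

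Few other retinoid genes passed the test. Of 88 symbols in lists of retinoid genes, 72 genes outside the 7 were in the count table, 39 were tested, 1 was called higher and 4 lower. This share is close to the 12.6% of all genes tested that were called, and the median log2 fold change was -0.030, beside 0.0099 over all genes tested. Without siCtrl replicate 2, 5 were called higher and 8 lower, in a fit that called 17.2% of all genes higher and 16.1% lower. Without siNQO1 replicate 1, none was higher and 1 was lower, without siCtrl replicate 1, 1 was higher and 1 lower, and without siNQO1 replicate 2 or 3 or siCtrl replicate 3 there were 0 of either. In the full comparison 12 of the 39 genes had an unadjusted p under 0.05, as did 3596 of the 12420 genes tested, a like share.

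Among receptors and their cofactors, 2 of 11 were lower, where 7.38% of all genes tested were. Rxrg, the gamma form of the retinoid X receptor, was at 0.32, 0.33 and 0.39 FPKM in siNQO1, against 0.58, 0.77 and 0.77 FPKM in siCtrl. It fell by 1.00 on the log2 scale (SE 0.21, edgeR adjusted p = 0.0203), with 26 to 38 reads per siNQO1 library and 41 to 66 per siCtrl library. Rara, the alpha form of the retinoic acid receptor, was at 17.0, 17.2 and 18.0 FPKM in siNQO1, against 22.5, 19.0 and 21.4 FPKM in siCtrl, and fell by 0.26 (SE 0.070, edgeR adjusted p = 0.0474). Both genes had groups that did not overlap. Rarg, the most abundant retinoic acid receptor here, was at 43.7 to 45.2 FPKM in siNQO1 and 42.7 to 48.8 FPKM in siCtrl (log2 fold change -0.03, edgeR adjusted p = 0.786). The orphan receptor Nr2f1 missed the threshold (log2 fold change 0.13, edgeR adjusted p = 0.127).

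Of 9 further enzymes that oxidize or reduce retinol, retinal or their relatives, 1 was lower, where 7.38% of all genes tested were. Retsat, the retinol saturase, was at 47.2, 47.4 and 48.6 FPKM in siNQO1, against 59.4, 52.2 and 58.3 FPKM in siCtrl, and fell by 0.23 (SE 0.060, edgeR adjusted p = 0.0387). Dhrs7, a relative of the retinol dehydrogenases, and the alcohol dehydrogenase Adh4 were abundant and did not pass, at log2 fold changes of 0.08 and -0.10 (edgeR adjusted p = 0.259 and 0.304). Rdh12, the nearest coding gene to Rdh11 on one side in the RefSeq order and an enzyme of photoreceptors, was at 0.90, 0.52 and 0.73 FPKM in siNQO1, against 0.56, 0.43 and 0.44 FPKM in siCtrl. The groups overlapped, and it did not pass (log2 fold change 0.61, SE 0.26, edgeR adjusted p = 0.164).

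Of the genes that make or break down retinoic acid, Aldh1a3 and Cyp26b1 were tested and did not pass, and the other 3 in the count table had too few reads to test. Aldh1a3, which oxidizes retinal to retinoic acid, was at 56.5 to 57.6 FPKM in siNQO1 and 51.4 to 57.3 FPKM in siCtrl (log2 fold change 0.08, SE 0.054, edgeR adjusted p = 0.390). Cyp26b1, which breaks retinoic acid down, was at 51.6, 54.0 and 54.3 FPKM in siNQO1, against 50.7, 44.9 and 46.7 FPKM in siCtrl. Its groups did not overlap, and it missed the threshold (log2 fold change 0.18, SE 0.056, edgeR adjusted p = 0.0647). Among response genes, the homeobox gene Meis2 rose by 0.42 (SE 0.11, edgeR adjusted p = 0.0443), with 8.49, 7.73 and 7.72 FPKM in siNQO1, against 5.83, 7.07 and 5.18 FPKM in siCtrl, and the neurotrophin receptor Ntrk2 fell by 0.24 (SE 0.064, edgeR adjusted p = 0.0471). Without any 1 library other than siCtrl replicate 2, Retsat, Rara, Meis2 and Ntrk2 no longer passed, with highest adjusted p of 0.130, 0.147, 0.186 and 0.129 from edgeR. Rxrg lost its call without siNQO1 replicate 1, 2 or 3 or siCtrl replicate 3 (highest edgeR adjusted p = 0.0893).

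Carriers and lipid enzymes did not pass either. The fatty acid and retinoic acid carrier Fabp5 was at 32.2 to 38.3 FPKM in siNQO1 and 30.7 to 36.1 FPKM in siCtrl (log2 fold change 0.12, edgeR adjusted p = 0.468), and the lipoprotein receptor Scarb1 had a log2 fold change of 0.10 (edgeR adjusted p = 0.422). Of the genes of light detection, Pde6d, which carries prenylated proteins and is not confined to photoreceptors, was at 49.5 to 50.6 FPKM in siNQO1 and 53.5 to 60.5 FPKM in siCtrl (log2 fold change -0.19, edgeR adjusted p = 0.0846). Opn3, the other opsin of the lists with more than 1 FPKM, was at 2.25, 2.52 and 2.58 FPKM in siNQO1, against 2.50, 2.53 and 2.62 FPKM in siCtrl (log2 fold change -0.04, edgeR adjusted p = 0.842). The opsin Rrh was at 0.02 to 0.19 FPKM in siNQO1, against 0.16 to 0.36 FPKM in siCtrl, too low to be tested.

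**Figure D4:**
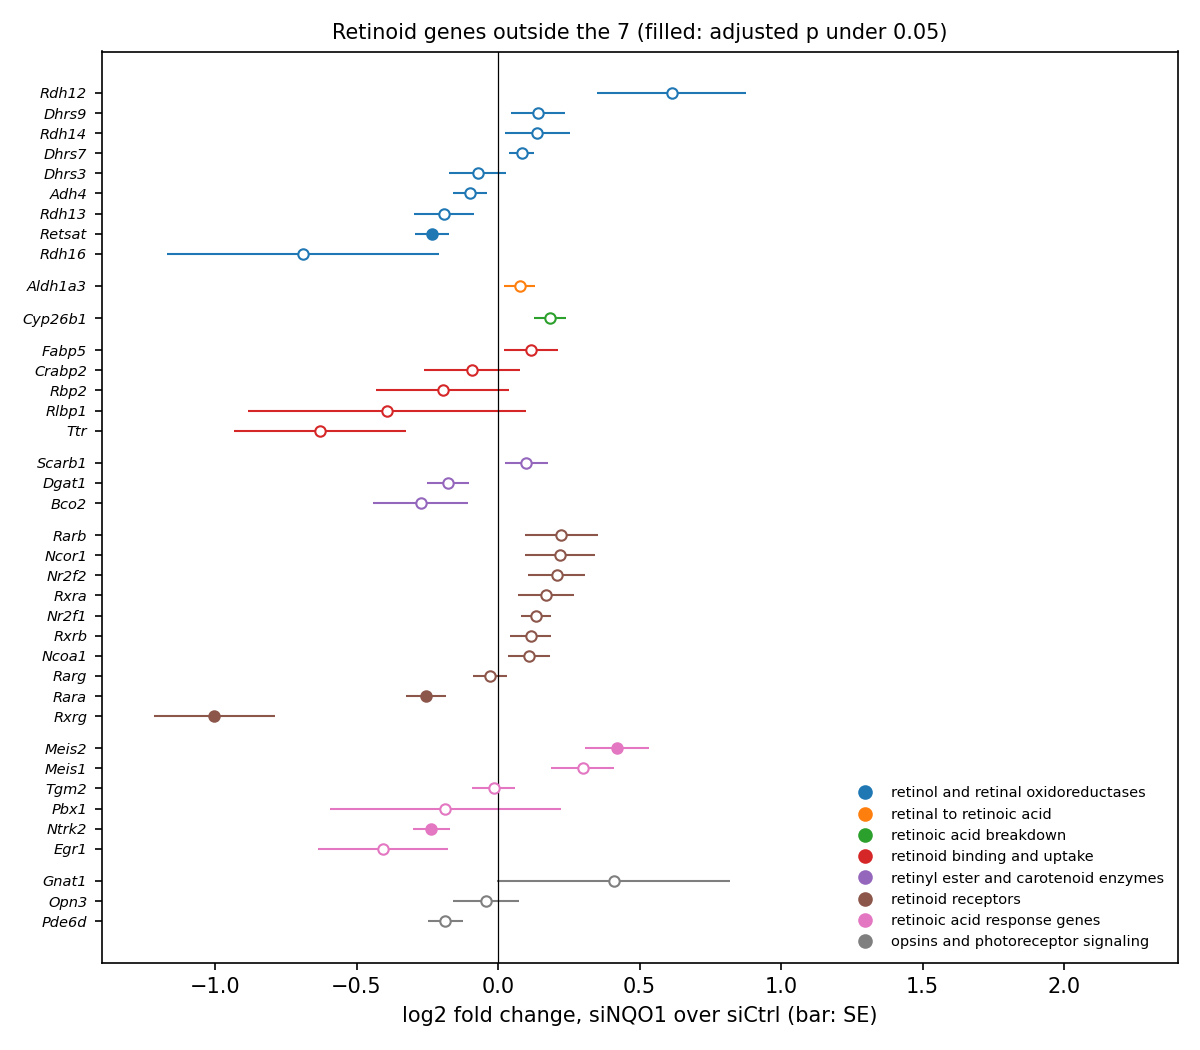
Log2 fold change of siNQO1 over siCtrl for the tested retinoid genes outside the 7 that are reported here, colored by role, with bars of 1 SE. Filled points passed an adjusted p under 0.05. Rxrg is the filled point farthest from 0, and Retsat, Rara, Ntrk2 and Meis2 lie between -0.26 and 0.42.

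Markers of the eye were mostly low in all libraries, and their part in the values of Rgr was not tested. Of the pigment epithelium, Lrat was at 0.00 to 0.01 FPKM in all libraries and Rpe65 at 0.06 to 0.12 FPKM in siNQO1 and 0.07 to 0.13 FPKM in siCtrl. The 9 markers found summed to 15.2 to 15.8 FPKM in siNQO1 and 20.7 to 21.5 FPKM in siCtrl, mostly from the melanosome gene Pmel, which fell by 0.54 (SE 0.065, edgeR adjusted p = 0.00199), while the other 5 tested did not pass. Of the Muller glia markers, Slc1a3 was at 0.00 to 0.02 FPKM in siNQO1 and 0.00 to 0.01 FPKM in siCtrl, and Apoe, which many cell types express, was the 1 of 5 tested that rose (log2 fold change 0.69, SE 0.18, edgeR adjusted p = 0.0411). Over all genes tested, 5.27% were called higher and 7.38% lower. The Muller glia list summed to 22.7 to 23.8 FPKM in siNQO1 and 21.2 to 23.0 FPKM in siCtrl, mostly from Glul. The mean of Glul was 18.9 FPKM in siNQO1 and 19.1 FPKM in siCtrl (log2 fold change -0.0073, edgeR adjusted p = 0.948). Of the photoreceptor list, Crx was at 0.00 to 0.02 FPKM in siNQO1 and 0.00 FPKM in siCtrl, and the 8 markers found summed to 3.14 to 3.40 FPKM in siNQO1 and 3.53 to 4.28 FPKM in siCtrl, mostly from Rom1. The fibroblast markers summed to 46.4 to 49.7 FPKM in siNQO1 and 50.9 to 51.7 FPKM in siCtrl, nearly all from Pdgfra.

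The neighbors of the dehydrogenase genes were measured in the same way. Of the 2 nearest genes on either side of Rdh5, Rdh10 and Rdh11, 6 were tested and 1 was called. Over all genes tested, 12.6% were called in either direction. Gdf11, a ligand of the TGF-beta family that lies beyond Cd63 from Rdh5, rose by 0.24 (SE 0.062, edgeR adjusted p = 0.0410), with 12.4, 12.5 and 11.9 FPKM in siNQO1, against 11.2, 10.2 and 10.2 FPKM in siCtrl. It lost its call without siNQO1 replicate 1, 2 or 3 or siCtrl replicate 3 (highest edgeR adjusted p = 0.158). Bloc1s1, on the other side of Rdh5 and a subunit of a lysosome biogenesis complex, was at 111.1 to 115.9 FPKM in siNQO1 and 97.5 to 111.1 FPKM in siCtrl (log2 fold change 0.13, edgeR adjusted p = 0.226). Rpl7, the ribosomal protein gene next to Rdh10, whose reads may be shared with near-identical copies, and Vti1b, next to Rdh11, had log2 fold changes of 0.16 and -0.14 and did not pass (edgeR adjusted p = 0.0545 and 0.126).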

How the data were processed

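The authors prepared stranded libraries of polyadenylated RNA from 3 siNQO1 and 3 siCtrl samples and read both ends. According to the methods, reads were trimmed with the FASTX-Toolkit, aligned to RGSC6 with TopHat2 and counted when uniquely mapped. The submitters' processing notes also name bcl2fastq and edgeR. One deposited table holds raw counts of reads for each gene. The other holds FPKM, in which the authors scaled fragments by transcript length and by mapped depth. Which tool counted, and whether by strand, was not given in the sources used here.

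Counts were analyzed in R 4.3.3 with edgeR 4.0.16 (filterByExpr, TMM, quasi-likelihood fit and F test, no replicate term), and p-values were adjusted after Benjamini and Hochberg across 12420 tested genes. The standard error (SE) is the absolute log2 fold change divided by the square root of F. Depth is the number of reads counted in genes, and the common dispersion corresponds to a biological coefficient of variation of 0.109. Log2 CPM used a prior count of 2.

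The members and lists were chosen with earlier results of these data known. Named are the 7 genes, Nqo1, retinoid genes that were called, the 10 most abundant retinoid genes that were not, tested neighbors, and the 5 genes most correlated with Rgr and with Rdh5. Some genes that this rule names are not reported here. Other genes, such as Opn3, were named after their values were seen. The deposited tables give chromosomes only, so gene order, start windows and gene spans are from RefSeq GRCr8, and no position from it is mixed with the authors' build. Alternatives were other scalings, filters and tests (DESeq2 1.42.0, limma 3.58.1), log2 FPKM with pseudocounts of 1 and 0.1, a replicate block, and each library left out. Splicing and RT-qPCR were not analyzed here.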

Additional observations from a re-analysis of the deposited data

How the results depend on the processing

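Nqo1 and Ghitm kept their direction and their calls in each of the 17 alternatives, with log2 fold changes of -2.19 to -2.10 and 0.25 to 0.28. For the genes chosen on this comparison the ranges are a description only. Rgr lay between 3.09 and 3.30, Lrit1 between 0.56 and 1.52 and Rdh5 between -1.19 and -0.43, with Rdh5 past the threshold in 13 of the 17, and the number of the 7 genes called lower ran from 0 to 1 with 1 library left out. With 1 library left out, Cdhr1 ran between -0.025 and 0.39 and Rdh10 between -0.0075 and 0.038, with a sign change without siNQO1 replicate 3 and without siNQO1 replicate 2. Retinoid genes called higher numbered 0 with library size alone, with at least 10 reads in every library of a group and on log2(FPKM + 1) or log2(FPKM + 0.1), 2 with DESeq2, and 0 to 5 with 1 library left out. Those called lower numbered 2 with upper-quartile scaling and on both FPKM scales, and 0 to 8 with 1 library left out. Neighbors of the dehydrogenase genes called higher numbered 2 with upper-quartile scaling, library size alone, DESeq2 and voom, 0 with the exact test of edgeR and on both FPKM scales, and 0 to 2 with 1 library left out, and those called lower 0 to 1. In the window of 10 genes of the count table, 1 gene was called lower with at least 10 reads in every library of a group, on both FPKM scales and without siCtrl replicate 2, and 2 were called higher without siCtrl replicate 2. The cause of these changes was not tested.

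After subtracting group means, libraries with the same number correlated at -0.04, 0.16 and 0.06 for replicates 1, 2 and 3, and not every library correlated best with its own number, so the libraries were treated as unpaired. With the replicate number as a block, 610 genes were higher and 740 lower, against 654 and 917 without it, the 7 genes kept their calls, 2 retinoid genes were called lower and 0 neighbors of the dehydrogenase genes were called higher. DESeq2 gave no adjusted p to Rxrg or to Cdhr1, so 6 of the 7 genes were tested with it. Among the genes around Rgr and the dehydrogenases, low read numbers limit what can be said of Cdhr1, Lrit2, Rdh5 and Lrit1.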
